A study of Mus musculus with 34 samples.

Results

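The nucleosome remodelling and deacetylation complex, NuRD, is built from the MTA proteins and from 10 further core genes that are described here: Chd4, Chd3, Gatad2a, Gatad2b, Mbd3, Mbd2, Hdac1, Hdac2, Rbbp4 and Rbbp7. They were chosen by name and matched by Ensembl identifier. All 10 were listed among the 48709 genes of the Control and Mta123KO libraries and among the 22018 genes of the single-mutant libraries, and all 10 passed the filter on low counts in every comparison. RNA was sequenced from mouse embryonic stem (ES) cells of strain 129/Ola in 34 libraries. A set of single mutants comprised, with 3 libraries a group, Mta1_del/del cells and their Mta1_flox/flox parents, Mta2_KO and Mta2_WT cells, and Mta3_del/del cells and their Mta3_flox/flox parents, all labelled as grown in 2i+LIF, that is, with the cytokine LIF and small-molecule inhibitors of the kinases Gsk3 and Mek. The other set, called the second set below, comprised Control and Mta123KO cells, each with 4 libraries labelled 2iL and 4 labelled 48 h, that is, kept in N2B27 medium for 48 h after the inhibitors and LIF were taken away. Each of these groups of 4 is 2 libraries from each of 2 lines. According to the study's methods, the Mta123KO cells lack Mta1 and Mta3 through deletion of floxed alleles with Cre recombinase and lack Mta2 through replacement or deletion of its exons with Cas9. The Control cells are not wild type, since they keep floxed Mta3 alleles and 1 intact copy of Mta1. The Mta2_KO cells come from a single line.

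A library held 13105820 to 40613585 counts among the single mutants and 37855790 to 57602285 counts among Control and Mta123KO cells, so the least abundant subunit gene, Mbd2 with at least 9.70 CPM (counts scaled to library size), was not limited by depth. The culture labels of the second set need care. The summed level of 8 naive pluripotency markers was 157 to 241 CPM in the Control libraries labelled 2iL and 3700 to 4085 CPM in those labelled 48 h, while the single-mutant libraries, all labelled 2i+LIF, held 3260 to 5850 CPM. The summed level of 4 formative pluripotency markers (Fgf5, Otx2, Dnmt3b and Pou3f1) ran the other way. It was 747 to 1287 CPM in Control labelled 2iL, 73.5 to 85.1 CPM in Control labelled 48 h and 59.4 to 216 CPM in the single-mutant libraries. The names of the deposited files also give the opposite culture. Cultures are therefore written as labelled; if the labels were exchanged, the values of the Mta123KO comparisons under the 2 labels would change places and each culture change would turn its sign. The general pluripotency markers Pou5f1, Sox2 and Sall4 were present in all libraries, at a summed 751 CPM or more. The targeted genes followed the genotype labels, with Mta2 at 9.21 to 11.7 CPM in Mta2_KO against 225 to 249 CPM in Mta2_WT and at 4.75 to 10.4 CPM in Mta123KO against 110 to 203 CPM in Control. Mta3 was at 9.53 to 13.0 CPM in Mta3_del/del against 61.5 to 71.1 CPM in the parents. Mta1, whose allele leaves most of its exons in place, was at 39.2 to 48.0 CPM in Mta1_del/del against 69.4 to 103 CPM. The labels do not say whether libraries of a line are separate cultures. The p-values below therefore measure the spread between libraries. Results with the 2 libraries of each line summed are given where they differ.

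NuRD joins 2 enzymatic activities in a single assembly. The remodeller module holds an ATP-dependent nucleosome remodeller of the CHD family, Chd4 or its relative Chd3, together with the zinc finger proteins Gatad2a or Gatad2b. The deacetylase module holds the histone deacetylases Hdac1 and Hdac2 and the histone-binding WD40 proteins Rbbp4 and Rbbp7, held on a scaffold of MTA proteins. A methyl-CpG-binding domain protein, Mbd3 or Mbd2, bridges the modules; Mbd2 binds methylated DNA and Mbd3 largely does not, and a given complex contains one or the other. In ES cells Mbd3 and Chd4 are the best-studied forms, and loss of Mbd3 impairs the exit from self-renewal. On GRCm38 the remodeller genes are Chd4 (chr6:125095981-125130591), Chd3 (chr11:69343273-69369406), Gatad2a (chr8:69907076-69996384) and Gatad2b (chr3:90293178-90363407). The bridging genes are Mbd3 (chr10:80392539-80399550) and Mbd2, and the deacetylase module genes are Hdac1 (chr4:129516104-129542713), Hdac2 (chr10:36974544-37001889), Rbbp4 (chr4:129307100-129335370) and Rbbp7 (chrX:162760402-162779092). Several members work elsewhere too: Hdac1 and Hdac2 also sit in the Sin3, CoREST and MiDAC complexes, and Rbbp4 and Rbbp7 also in Sin3, in the Polycomb complex PRC2, in the chromatin assembly factor CAF-1 and in the remodeller NURF.

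RefSeq promoters on GRCm38.p6 were at hand for 7 of the 10 genes. The 250 bases before the outermost start are shown for Gatad2a and Gatad2b, which rose together in Mta123KO cells, and for Rbbp4 and Hdac2, which fell together. They are read 5′ to 3′ on the gene's strand, and capitals mark CCAAT boxes (CCAAT or, on the other strand, ATTGG) and GC boxes (GGGCGG or CCGCCC).
Gatad2a, chr8:69996385-69996634, minus strand: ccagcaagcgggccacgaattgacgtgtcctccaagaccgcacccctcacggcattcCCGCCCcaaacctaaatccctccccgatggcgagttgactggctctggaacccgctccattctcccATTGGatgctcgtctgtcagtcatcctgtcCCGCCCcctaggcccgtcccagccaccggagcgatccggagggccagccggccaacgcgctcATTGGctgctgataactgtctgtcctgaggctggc
Gatad2b, chr3:90292931-90293180, plus strand: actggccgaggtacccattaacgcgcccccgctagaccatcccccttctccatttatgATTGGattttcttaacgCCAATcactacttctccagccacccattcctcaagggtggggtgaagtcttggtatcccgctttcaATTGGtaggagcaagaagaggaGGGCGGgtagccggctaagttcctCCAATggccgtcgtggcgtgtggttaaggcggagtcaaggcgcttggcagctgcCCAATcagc
Rbbp4, chr4:129335371-129335620, minus strand: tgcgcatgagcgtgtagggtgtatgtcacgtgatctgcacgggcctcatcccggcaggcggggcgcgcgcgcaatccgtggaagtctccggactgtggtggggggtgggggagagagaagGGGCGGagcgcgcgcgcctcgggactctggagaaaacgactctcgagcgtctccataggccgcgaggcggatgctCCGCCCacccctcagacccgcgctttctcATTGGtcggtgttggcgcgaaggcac
Hdac2, chr10:36974294-36974543, plus strand: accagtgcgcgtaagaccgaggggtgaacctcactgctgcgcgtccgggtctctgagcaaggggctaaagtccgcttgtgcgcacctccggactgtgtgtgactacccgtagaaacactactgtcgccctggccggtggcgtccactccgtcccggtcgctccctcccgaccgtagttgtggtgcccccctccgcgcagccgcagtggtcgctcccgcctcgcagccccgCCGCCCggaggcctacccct
The Gatad2b window held 5 CCAAT boxes and that of Gatad2a 2, the Rbbp4 window 1 and the Hdac2 window 0. Of the members whose windows are not shown, Mbd3, which was not called in Mta123KO, had 3, Rbbp7 1 and Chd4 0. No promoter was at hand for Chd3, Mbd2 or Hdac1. Each of the 7 windows held 1 or 2 GC boxes. A CCAAT box was present in 33.8% and a GC box in 32.7% of all 32851 promoter windows of this length. All 4 windows were rich in G and C, at 56.0% for Gatad2b, 64.0% for Gatad2a, 67.6% for Rbbp4 and 68.8% for Hdac2. These are matches of letters in a window and do not identify bound sites. The 4 windows shown were chosen by the change of their genes, and a link of box counts with that change was not tested.

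Levels of different genes were compared as CPM per kilobase of merged exons. In Control cells labelled 2iL the order of mean levels was Rbbp7 (81.8), Chd4 (69.5), Gatad2a (37.3), Rbbp4 (29.2), Hdac2 (27.1), Mbd3 (17.9), Hdac1 (11.5), Gatad2b (4.44), Mbd2 (3.28) and Chd3 (2.93). All neighbours in this order were separated in every library except Mbd2 and Chd3, whose ranges overlapped. The gap between Rbbp4 and Hdac2 was narrow, since the lowest Rbbp4 and the highest Hdac2 value both round to 27.6. The order was taken for merged exons and depends on the length used. Per kilobase of coding sequence, Rbbp4 was above Rbbp7 in these libraries (mean ratio 1.07). The place of Hdac1 is uncertain for a further reason, described below. Chd4, the main remodeller of ES cells, made up 95.9% ± 0.372 (SD, n = 4) of the summed Chd4 and Chd3 level. Gatad2a made up 89.3% ± 0.568 (SD, n = 4) of the Gatad2 pair and Mbd3 84.4% ± 1.19 (SD, n = 4) of the Mbd pair. The Mta2_WT libraries kept this order of pairs, with Chd4 at 91.2% ± 0.224, Gatad2a at 78.5% ± 0.313 and Mbd3 at 65.9% ± 1.74 (SD, n = 3 each).

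The deacetylase pair and the WD40 pair were less one-sided, and which WD40 gene was the more abundant depended on the length used. In Control cells labelled 2iL, Hdac1 made up 29.8% ± 2.72 of the Hdac pair and Rbbp4 26.3% ± 1.08 of the Rbbp pair (SD, n = 4 each). In the single-mutant groups the mean Hdac1 share ran from 47.0% in Mta1_flox/flox to 55.4% in Mta3_del/del. Rbbp4 has long untranslated exons, and the ratio of Rbbp4 to Rbbp7 was 0.357 per kilobase of merged exons, 0.517 per kilobase of the longest transcript and 1.07 per kilobase of coding sequence. Hdac1 shares 35.49% of its 50-base stretches with other annotated transcripts, chiefly with its processed pseudogene copy Gm10093, whereas no stretch was shared between any pair of alternative subunits. In the second set Gm10093 was counted at 69.8 to 127 CPM, above Hdac1 itself at 29.1 to 76.5 CPM. The level of Hdac1 in this set is therefore uncertain, and with it its place in the order above and its share of the pair. In the single mutants Gm10093 was at 46.8 to 108 CPM and Hdac1 at 118 to 212 CPM. The Hdac1 shares of the single mutants therefore also depend on how the copy is counted. With Gm10093 added, Hdac1 was at 112 to 116 CPM in Control labelled 2iL, beside 118 to 123 CPM for Hdac2, before division by length. Hdac1 is given below also with the counts of Gm10093 added. Rbbp7 shares 11.21% of its stretches, with the pseudogene copy Gm6382 and the overlapping gene Txlng, and Rbbp4 17.20%, mostly with the genes Sync and Gm26722 that overlap it on the other strand; the strand setting of the counting is not given in the sources used here.

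The first question was how loss of all 3 MTA proteins changed the RNA of their partners. In Mta123KO cells the 2 minor subunits Chd3 and Mbd2 rose the most, by 4.58-fold and 2.23-fold in libraries labelled 2iL, the Gatad2 genes rose by less than 1.5-fold, and Rbbp4 and Hdac2 fell. By edgeR's quasi-likelihood test with Benjamini-Hochberg adjustment over all genes, 4 of 10 members rose and 3 fell under the 2iL label, where 51.3% of 21651 genes tested were called. Under the 48 h label 5 rose and 2 fell, where 50% of 21079 genes were called. Of all genes, 27.1% were called higher and 24.2% lower under 2iL, and 26.6% and 23.4% under 48 h. Chd3, Mbd2, Gatad2a and Gatad2b were higher and Hdac2 and Rbbp4 lower in every Mta123KO than in every Control library under both labels, beside 25.7% of genes higher and 23.9% lower without overlap under 2iL and 24.2% and 24.2% under 48 h. The count of called members was thus read against a background in which about every other gene was called. The median absolute log2 fold change of the members was 0.402 under 2iL and 0.447 under 48 h, beside 0.429 and 0.408 over all genes tested. On spike-in scaling under 48 h, which moved the median of all genes from 0.01 to -0.18, Mbd2, Chd3, Hdac2 and Rbbp4 were called and Gatad2a, Gatad2b and Rbbp7 were not. Past a log2 fold change of 1, only Chd3 and Mbd2 were called, under both labels, beside 13.2% of genes higher and 7.43% lower under 2iL and 14.1% and 5.93% under 48 h.

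**Figure D1:**
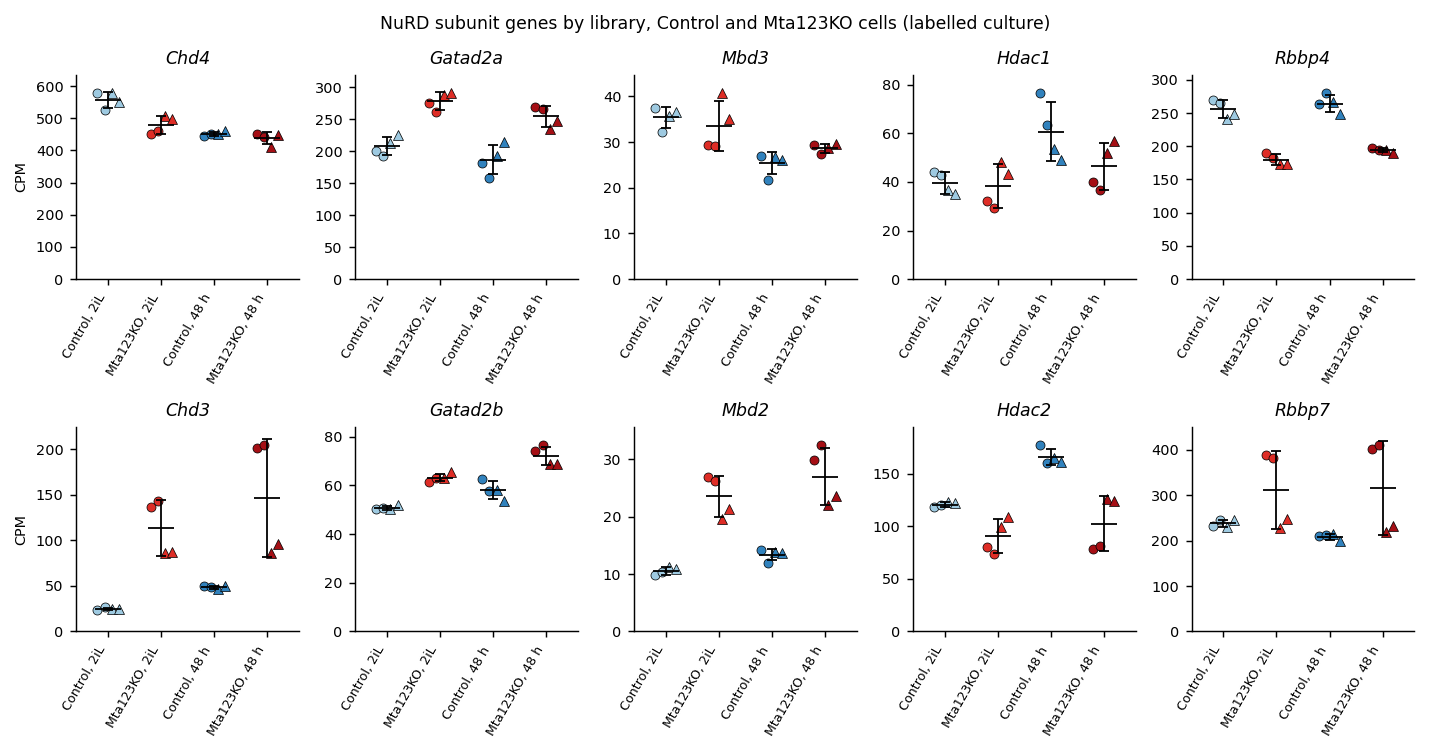
CPM (linear axes from 0) of the 10 NuRD subunit genes in each library of Control (blue) and Mta123KO (red) cells by labelled culture; circles are line 1, triangles line 2, and bars show mean and SD (n = 4). Chd3 and Mbd2 sit above Control in both Mta123KO lines, Rbbp4 sits below, and Rbbp7 is raised in line 1, at 382 to 410 CPM, and not in line 2.

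Of the remodeller module, Chd3 moved most. In Control libraries labelled 2iL it was at 23.5, 26.6, 24.9 and 24.1 CPM, and in Mta123KO libraries at 137 and 143 CPM in line 1 and 85.8 and 87.1 CPM in line 2. Under the 48 h label Control libraries held 49.6, 48.7, 46.2 and 49.5 CPM and Mta123KO libraries 201 and 204 CPM in line 1 and a mean of 90.9 CPM over both libraries of line 2, the higher at 95.8 CPM. All Mta123KO libraries lay above all Control libraries, and line 1 lay above line 2 under both labels. The log2 fold change was 2.19 ± 0.18 (SE, adjusted p = 2.69e-05, edgeR) under 2iL and 1.62 ± 0.28 (adjusted p = 0.00133, edgeR) under 48 h. With the libraries of a line summed it was called under 2iL (adjusted p = 0.0197, edgeR) and not under 48 h (adjusted p = 0.0514, edgeR). The share of Chd4 in the Chd pair went from 95.9% to 81.7% ± 4.94 under 2iL and from 90.7% ± 0.277 to 76.6% ± 7.76 under 48 h (SD, n = 4 each). The 20 nearest tested genes around Chd3 on chromosome 11 had median log2 fold changes of 0.25 and 0.21.

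The summed level of 6 trophoblast markers (Cdx2, Eomes, Elf5, Gata3, Krt8 and Krt18), of which 6 rose under 2iL and 4 under 48 h, was higher in the Mta123KO libraries and in the same order of lines as Chd3. It was 15.4 to 20.3 CPM in all Control libraries, 336 to 374 CPM in Mta123KO line 1 and 69.4 to 73.7 CPM in line 2 under 2iL, and 671 to 710 and 136 to 143 CPM under 48 h. Krt8 and Krt18 made up most of it, at up to 350 and 343 CPM, while the defining factors Cdx2 and Elf5 stayed at or below 3.92 and 3.83 CPM and none of the 6 was at 0. Elsewhere the marker sum and Chd3 did not move together. In Mta2_KO the sum was 14.5 to 18.5 CPM against 52.3 to 54.6 CPM in Mta2_WT, while Chd3 was higher, at 112 to 124 against 47.6 to 57.5 CPM. In Control cells mean Chd3 was 24.8 CPM under 2iL and 48.5 CPM under 48 h, with mean sums of 16.1 and 17.8 CPM. Whether cells with trophoblast markers contributed to the Chd3 level was not tested, and in bulk RNA a larger share of such cells and more Chd3 RNA per cell cannot be told apart.

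Chd4 changed little. It was at 526 to 578 CPM in Control and 451 to 507 CPM in Mta123KO libraries labelled 2iL, a log2 fold change of -0.22 ± 0.06 (adjusted p = 0.0160, edgeR), and at 445 to 459 and 411 to 451 CPM under 48 h, a log2 fold change of -0.02 ± 0.05 (adjusted p = 0.738, edgeR). The call under 2iL was lost without Control replicate 1_1 (adjusted p = 0.0519, edgeR) and without Control replicate 2_1 (adjusted p = 0.0510, edgeR), and with libraries of a line summed (adjusted p = 0.204, edgeR). The Gatad2 genes moved in parallel. Gatad2a was at 201, 193, 213 and 226 CPM in Control and at 276, 261, 288 and 291 CPM in Mta123KO libraries labelled 2iL, a log2 fold change of 0.42 ± 0.07 (adjusted p = 8.13e-04, edgeR). Gatad2b was at 50.3, 50.5, 50.3 and 52.0 CPM in Control and at 61.4, 63.2, 63.0 and 65.3 CPM in Mta123KO, a log2 fold change of 0.32 ± 0.05 (adjusted p = 9.21e-04, edgeR). No Mta123KO library fell within the Control range for either gene. Under 48 h the changes were 0.47 ± 0.09 for Gatad2a (adjusted p = 0.00312, edgeR) and 0.33 ± 0.07 for Gatad2b (adjusted p = 0.00425, edgeR). With libraries of a line summed, neither was called under either label, at adjusted p = 0.0743 and 0.110 under 2iL and 0.0812 and 0.124 under 48 h (edgeR). Since both members rose by similar amounts, the Gatad2a share of the pair stayed between 86.7% and 90.0% in the means of all 4 groups.

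Of the genes of the bridging proteins, Mbd2 RNA rose under both labels and Mbd3 RNA was not called under either. These are RNA levels, and protein was not measured here. On blots, the study found Mbd3 and Gatad2b protein barely detectable in Mta123KO cells, and it describes both genes as transcribed at normal levels. It also reported that Mbd2 and Gatad2a protein was lost together with Mta3 when Mta3 was deleted in cells without Mta1 and Mta2. Here Gatad2b RNA was 1.25-fold (2iL) and 1.26-fold (48 h) the Control level, and both calls were lost with libraries of a line summed. Mbd2 was at 9.82, 10.3, 11.3 and 10.8 CPM in Control and at 26.9, 26.2, 19.6 and 21.4 CPM in Mta123KO libraries labelled 2iL. Under 48 h it was at 14.1, 11.9, 13.9 and 13.6 CPM in Control and at 29.8, 32.4, 22.0 and 23.6 CPM in Mta123KO. Both Mta123KO lines lay above every Control library under both labels. The log2 fold change was 1.16 ± 0.12 (adjusted p = 7.92e-05, edgeR) under 2iL and 1.03 ± 0.13 (adjusted p = 2.51e-04, edgeR) under 48 h, and it was called also with libraries of a line summed (adjusted p = 0.0276 and 0.0318, edgeR). Mbd3 was at 32.2 to 37.5 CPM in Control and 29.2 to 40.7 CPM in Mta123KO under 2iL and gave a log2 fold change of -0.08 ± 0.11 (adjusted p = 0.594, edgeR), and line 1 alone was called lower (-0.28 ± 0.07, adjusted p = 0.00907, edgeR). Under 48 h Mbd3 was at 21.8 to 27.0 CPM in Control and, without overlap, at 27.3 to 29.5 CPM in Mta123KO, a log2 fold change of 0.19 ± 0.08 (adjusted p = 0.0787, edgeR). The Mbd3 share of the Mbd pair was 84.4% in Control and 69.5% ± 6.51 in Mta123KO under 2iL, and 75.4% ± 0.453 and 63.4% ± 4.72 under 48 h (SD, n = 4 each). Per kilobase of merged exons Mbd3 was the more abundant of the pair in every library, but per kilobase of the longest transcript its share went down to 49.8% in the lowest Mta123KO library labelled 48 h.

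**Figure D2:**
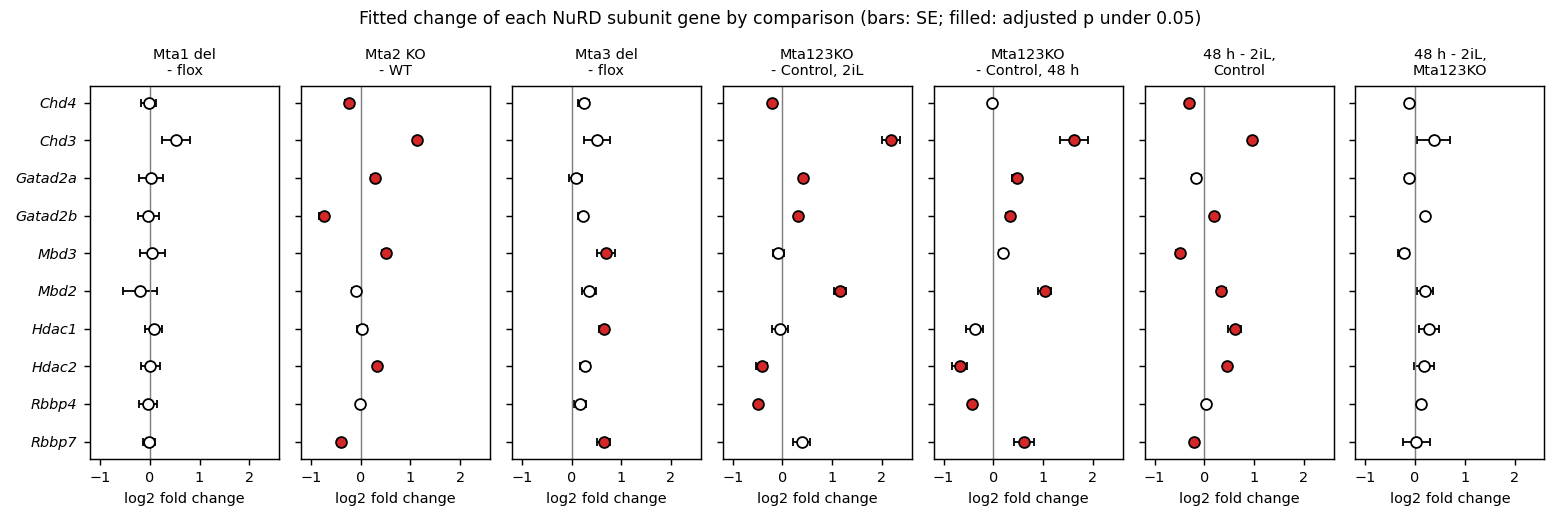
Fitted log2 fold change (horizontal axis, bars 1 SE) of each NuRD subunit gene in 7 comparisons; filled points passed an adjusted p of 0.05 (edgeR). Chd3 is furthest to the right in both Mta123KO comparisons (2.19 and 1.62) and in the Mta2 comparison (1.14), and no point is filled in the Mta1 comparison.

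In the deacetylase module the called changes were mostly falls. Rbbp4, the histone chaperone subunit also found in CAF-1 and PRC2, was at 269, 265, 241 and 248 CPM in Control and at 190, 182, 174 and 174 CPM in Mta123KO libraries labelled 2iL. Under 48 h it was at 263, 280, 266 and 248 CPM in Control and at 198, 194, 194 and 190 CPM in Mta123KO. The groups did not overlap, and both Mta123KO lines gave the same picture. The log2 fold change was -0.50 ± 0.06 (adjusted p = 1.83e-04, edgeR) under 2iL and -0.43 ± 0.06 (adjusted p = 3.19e-04, edgeR) under 48 h, and the calls held with libraries of a line summed (adjusted p = 0.0448 and 0.0452, edgeR). Rbbp4 and Mbd2 were the members called under both labels in that fit with 2 lines a genotype.

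Hdac2 was at 118, 120, 123 and 122 CPM in Control and, in Mta123KO labelled 2iL, at 80.8 and 73.5 CPM in line 1 and 99.4 and 109 CPM in line 2. Under 48 h it was at 177, 160, 165 and 161 CPM in Control, at 78.4 and 81.3 CPM in Mta123KO line 1 and at 126 and 124 CPM in line 2. Every Mta123KO library was lower than every Control library, and line 1 was lower than line 2. The log2 fold change was -0.42 ± 0.11 (adjusted p = 0.0142, edgeR) under 2iL and -0.68 ± 0.16 (adjusted p = 0.00618, edgeR) under 48 h; with libraries of a line summed neither was called (adjusted p = 0.153 and 0.0937, edgeR).

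For Hdac1 the lines diverged. Counted alone it was at 44.1 and 42.7 CPM in Control line 1 and 36.5 and 35.0 CPM in Control line 2 under 2iL, and at 32.3 and 29.1 CPM in Mta123KO line 1 and 48.3 and 43.4 CPM in line 2. Its copy Gm10093 ran the other way in these libraries, at 70.8 and 69.8, 76.2 and 80.7, 85.9 and 80.4, and 78.1 and 69.8 CPM. The sum of both was 112 to 116 CPM in Control and 109 to 126 CPM in Mta123KO, so the line difference seen for Hdac1 alone was mostly absent from the sum. The log2 fold change of Hdac1 was -0.05 ± 0.16 (adjusted p = 0.826, edgeR) under 2iL and -0.37 ± 0.17 (adjusted p = 0.102, edgeR) under 48 h. With Gm10093 added it was 0.04 ± 0.06 (adjusted p = 0.626, edgeR) and -0.28 ± 0.09 (adjusted p = 0.0242, edgeR).

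Rbbp7, the X-linked partner of Rbbp4, differed between the Mta123KO lines more than between genotypes. It was at 230 to 245 CPM in Control libraries labelled 2iL, at 388 and 382 CPM in Mta123KO line 1 and at 228 and 247 CPM in line 2. Under 48 h it was at 199 to 214 CPM in Control, at 402 and 410 CPM in line 1 and at 219 and 233 CPM in line 2. Line 2 was close to Control and line 1 was well above it. The fit of both lines gave log2 fold changes of 0.39 ± 0.17 (adjusted p = 0.0903, edgeR) and 0.62 ± 0.20 (adjusted p = 0.0310, edgeR), whereas line 1 alone gave 0.69 ± 0.05 and 0.98 ± 0.06 and line 2 alone -0.01 ± 0.06 and 0.13 ± 0.06. The 48 h call was lost when any of the 4 Control libraries or either line 1 library was left out, at adjusted p of 0.0651 to 0.0805 (edgeR). The copy Gm6382 showed the same split, at 80.1 to 89.7 CPM in line 1 and 46.8 to 54.0 CPM in line 2. Genes of the X chromosome as a whole did not differ in this way: line 1 minus line 2 of Mta123KO had a median of -0.03 over 624 genes under 2iL and -0.07 over 618 genes under 48 h, and the 20 nearest genes had medians of -0.01 and -0.16, beside 0.70 and 0.85 for Rbbp7.

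Genes in general differed more between the Mta123KO lines than between the Control lines, and so did the members. The median absolute log2 difference between lines over the 10 members was 0.370 in Mta123KO and 0.0450 in Control under 2iL, and 0.295 and 0.0850 under 48 h. Over all genes compared it was 0.273 in Mta123KO and 0.119 in Control under 2iL, and 0.259 and 0.116 under 48 h. Line 1 alone against all Control libraries gave 10 called members under 2iL and 8 under 48 h, and line 2 alone gave 6 and 6. In these fits 61.1% and 56.8% of all genes were called for line 1 and 52.0% and 47.6% for line 2. Mbd2, Chd3, Gatad2a and Gatad2b rose and Hdac2 and Rbbp4 fell in each line alone under each label.

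**Figure D3:**
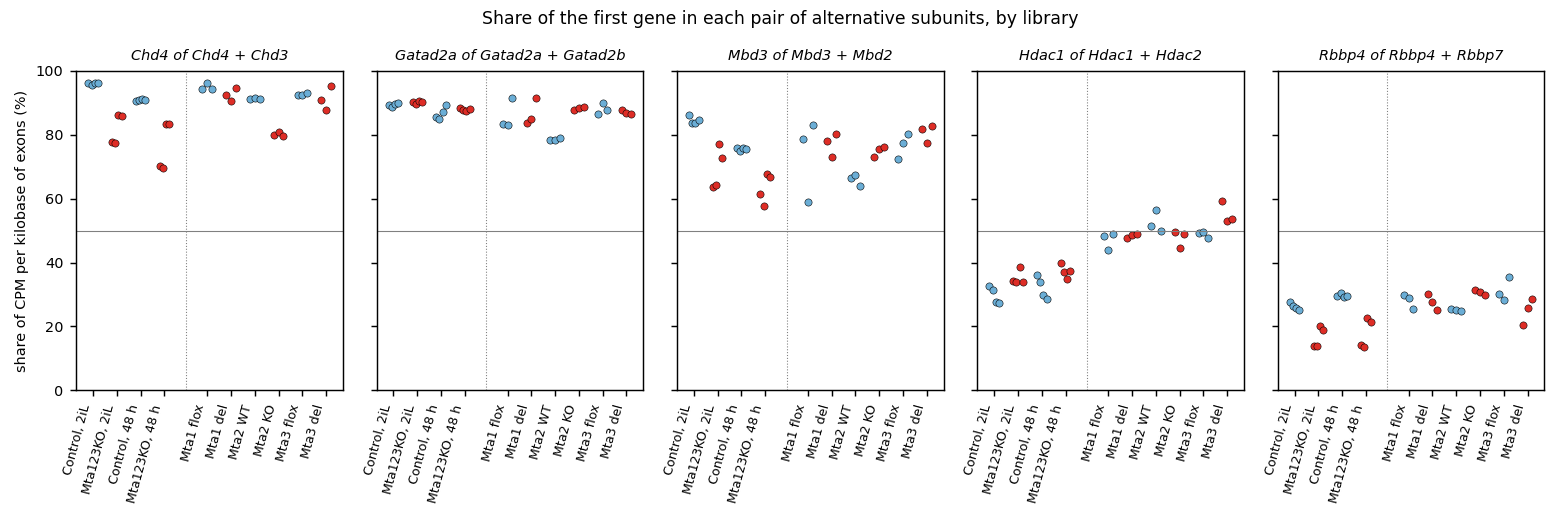
Share (%) of the first gene in each pair of alternative subunits, from CPM per kilobase of merged exons, 1 point per library; red marks mutant and blue parental, wild-type or Control libraries, and the dotted line parts the second set (left) from the single mutants, which should not be compared with each other. The Chd4 share is lower in Mta123KO and Mta2_KO libraries (means 76.6% to 81.7%) than in their controls (means 90.7% to 95.9%).

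The second question was how the members changed with culture. In Control cells 5 members were higher and 3 lower under the 48 h label than under 2iL, where 58.5% of 21240 genes tested were called, 29.5% higher and 29.0% lower. Chd3 had the largest difference, from 24.8 ± 1.36 to 48.5 ± 1.58 CPM (SD, n = 4), a log2 difference of 0.96 ± 0.06 (adjusted p = 1.56e-07, edgeR). Hdac1 (0.61 ± 0.13), Hdac2 (0.45 ± 0.05), Mbd2 (0.34 ± 0.09) and Gatad2b (0.19 ± 0.06) were also higher under 48 h, and Mbd3 (-0.48 ± 0.08), Chd4 (-0.31 ± 0.05) and Rbbp7 (-0.20 ± 0.05) were lower, with adjusted p of 2.06e-05 to 0.0165 (edgeR). The minor subunits Chd3 and Mbd2 thus were higher, and the major subunits Chd4 and Mbd3 lower, under the label whose Control libraries had the higher naive marker level. Rbbp4 gave 0.04 ± 0.06 (adjusted p = 0.518, edgeR) and Gatad2a -0.16 ± 0.09 (adjusted p = 0.134, edgeR); with the replicate number as a block, which pairs libraries of the same line, Gatad2a was called lower (adjusted p = 0.00844, edgeR). With libraries of a line summed Gatad2a was not called (adjusted p = 0.294, edgeR), and the call of Gatad2b was lost (adjusted p = 0.0859, edgeR). On spike-in scaling, which moved the median of all genes from 0.01 to 0.18, 4 members were called, all higher: Chd3, Hdac1, Hdac2 and Mbd2.

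In Mta123KO cells no member was called between the culture labels, beside 22.4% of 21505 genes; 1 member, Gatad2b, had an unadjusted p under 0.05 in edgeR, and the DESeq2 test called it (adjusted p = 0.0285). Lines differ strongly in these cells, and with the replicate block 4 members were called higher under 48 h: Mbd2 (0.19, adjusted p = 0.0381), Gatad2b (0.19, adjusted p = 0.0306), Chd3 (0.31, adjusted p = 0.0350) and Hdac1 (0.29, adjusted p = 0.00880; edgeR). None of the 4 was called with libraries of a line summed, at adjusted p of 0.572 to 0.778 (edgeR). For Chd3 the difference was 0.53 ± 0.05 in line 1 and 0.06 ± 0.07 in line 2. Hdac1 with Gm10093 added was called without a block too, at 0.29 ± 0.07 (adjusted p = 0.0238, edgeR).

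The difference of the Mta123KO effect between the labels was tested as an interaction in a fit of all 16 libraries. No member was called, beside 23.1% of 22973 genes; 1 member, Chd4, had an unadjusted p under 0.05 in edgeR and was called by DESeq2 (adjusted p = 0.0394). With the replicate block, which in this fit is the line within each genotype, the interaction was called for 5 members: Chd3 (-0.64, adjusted p = 1.54e-04), Hdac1 (-0.30, adjusted p = 0.0198), Hdac2 (-0.27, adjusted p = 0.0105), Chd4 (0.20, adjusted p = 0.0231) and Rbbp7 (0.22, adjusted p = 0.0141; edgeR). With libraries of a line summed none of the 5 was called, at adjusted p of 0.441 to 0.835 (edgeR). On spike-in scaling none was called either, and the values of Chd4 and Rbbp7 were -0.01 and -0.00.

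The third question was how loss of a single MTA protein changed the same genes. In Mta2_KO cells 4 members rose and 3 fell against Mta2_WT, where 47.8% of 15602 genes tested were called, 23.5% higher and 24.3% lower. Mta2_KO replicates 1 and 3 and Mta2_WT replicates 1 and 2 lay close together, at 4.412 and 8.632 chi-square units per degree of freedom. Other pairs within these groups were at 74.66 to 214.8, so the 3 libraries of a group may not be equally independent. The errors below do not allow for this. Chd3 rose the most and was the 1 member past a log2 fold change of 1, beside 5.31% of genes. It was at 57.5, 57.2 and 47.6 CPM in Mta2_WT and at 120, 112 and 124 CPM in Mta2_KO, a log2 fold change of 1.14 ± 0.07 (adjusted p = 2.00e-06, edgeR). The Chd4 share of the Chd pair was 91.2% in Mta2_WT and 80.1% ± 0.666 in Mta2_KO (SD, n = 3). Mbd3 rose from 27.8, 28.7 and 22.1 CPM to 37.1, 37.5 and 37.0 CPM, by 0.51 ± 0.08 (adjusted p = 8.57e-04, edgeR), while Mbd2 was at 20.1 to 22.8 and 18.8 to 22.3 CPM (-0.09 ± 0.08, adjusted p = 0.40, edgeR). In Mta2_KO cells Mbd3 passed the test and Mbd2 did not, and in Mta123KO cells Mbd2 passed and Mbd3 did not; the sets were not tested against each other. Hdac2 rose by 0.32 ± 0.05 (adjusted p = 4.71e-04, edgeR) and Rbbp7 fell by 0.40 on the log2 scale (SE 0.06, adjusted p = 3.20e-04, edgeR), from 365, 379 and 332 to 258, 283 and 269 CPM.

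**Figure D4:**
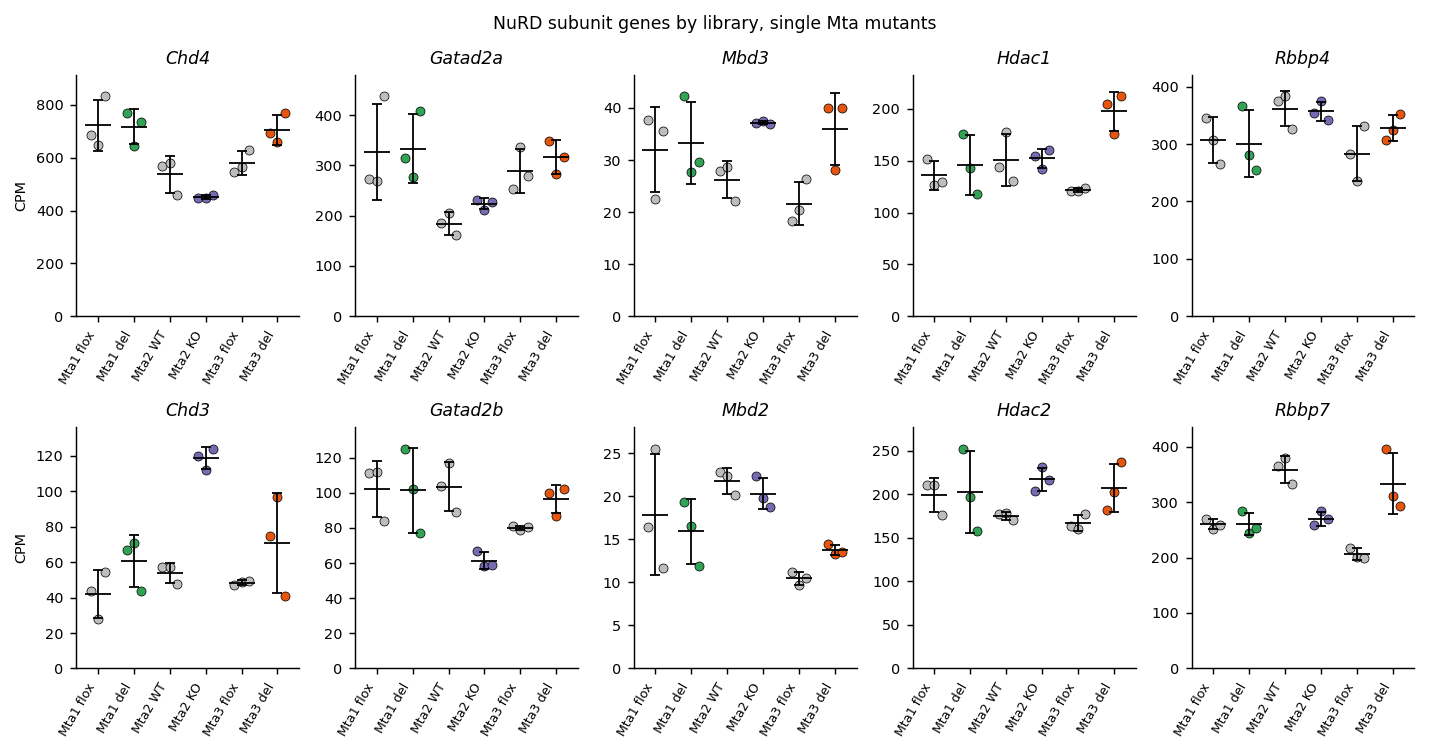
CPM (linear axes from 0) of the 10 NuRD subunit genes in each library of the single mutants (colours) and of their parents or wild type (grey); bars show mean and SD (n = 3). In Mta2_KO, Chd3 (112 to 124 CPM) sits above and Gatad2b (58.1 to 67.0 CPM) below all Mta2_WT libraries; in Mta1 libraries the ranges of all 10 genes overlap.

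Gatad2b was at 104, 117 and 89.1 CPM in Mta2_WT and 67.0, 58.1 and 59.1 CPM in Mta2_KO, a log2 fold change of -0.74 ± 0.09 (adjusted p = 1.51e-04, edgeR). This gene lies on chromosome 3, and chromosome 3 as a whole was lower in these cells: the median log2 fold change of its 736 tested genes was -0.50, and that of the 20 genes nearest to Gatad2b was -0.63, while the medians of the other 19 chromosomes lay between -0.04 and 0.08. All 3 Mta2_KO libraries showed this, with chromosome 3 medians of -0.28 to -0.24 around the mean of the 6 libraries against 0.23 to 0.29 in Mta2_WT. The part of the chromosome in the fall of Gatad2b was not tested, and with 1 Mta2_KO line it cannot be told apart from the loss of Mta2. The share of Gatad2a in its pair was 78.5% in Mta2_WT and 88.2% ± 0.539 in Mta2_KO. Chromosome medians of the other called members lay between -0.01 and 0.08.

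**Figure D5:**
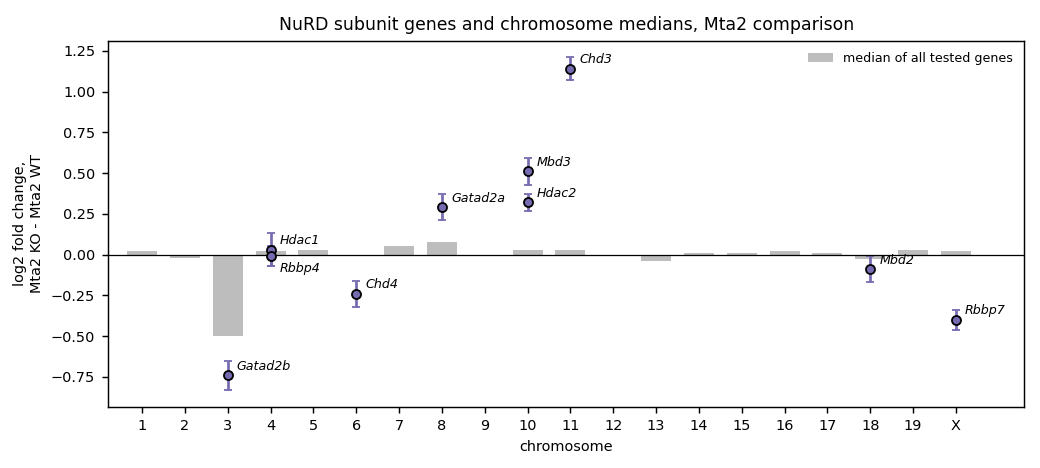
Log2 fold change of Mta2_KO over Mta2_WT: grey bars are the median of all tested genes of each chromosome, points are NuRD subunit genes with 1 SE. Chromosome 3, which carries Gatad2b, stands at -0.50; the other called members lie on chromosomes with medians near 0.

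The 2 smallest called changes of this comparison were less stable. Gatad2a rose by 0.29 ± 0.08 (adjusted p = 0.0125, edgeR), and the call was lost without Mta2_KO replicate 1 (adjusted p = 0.0570, edgeR) or Mta2_KO replicate 3 (adjusted p = 0.0509, edgeR). Chd4 fell by 0.24 on the log2 scale (SE 0.08, adjusted p = 0.0357, edgeR), and leaving out any library but Mta2_WT replicate 3 ended the call, with adjusted p of 0.0791 to 0.124 (edgeR). Hdac1 (0.03 ± 0.10) and Rbbp4 (-0.01 ± 0.06) did not pass the test. In a fit of all 18 single-mutant libraries, in which the Mta1 and Mta3 libraries also enter the estimate of spread, 3 members were called: Chd3, Gatad2b and Rbbp7.

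In Mta3_del/del cells 3 members rose and none fell against Mta3_flox/flox, where 16.2% of 15522 genes tested were called, 8.32% higher and 7.84% lower. Hdac1 was at 121, 121 and 124 CPM in the parents and 205, 176 and 212 CPM in the mutants, a log2 fold change of 0.65 ± 0.09 (adjusted p = 0.0148, edgeR), and 0.67 ± 0.10 with Gm10093 added. Rbbp7 was at 218, 201 and 199 CPM in the parents and 396, 311 and 293 CPM in the mutants, a log2 fold change of 0.65 ± 0.13 (adjusted p = 0.0208, edgeR). The X chromosome, which carries Rbbp7, had a median of 0.06 in this comparison and varied among the mutant libraries, at 0.19, 0.26 and -0.24 around the mean of the 6 libraries. Mbd3 was at 18.2, 20.4 and 26.3 CPM and 40.0, 28.0 and 39.9 CPM, a log2 fold change of 0.69 ± 0.18 (adjusted p = 0.0373, edgeR). Of the 10 members 7 were higher in all mutant than in all parental libraries, beside 23.4% of genes, and all 10 had a positive fitted value, with a median of 0.31 beside -0.01 over all genes. Fibroblast feeder markers summed to between 12 and 51.5 CPM in the parents and 6.59 to 7.31 CPM in the mutants, and their part in these values was not tested. The calls rest on few libraries: without Mta3_del/del replicate 1 none of the 3 was called (adjusted p = 0.0769 for Hdac1, 0.0850 for Rbbp7 and 0.141 for Mbd3, edgeR), without Mta3_flox/flox replicate 2 or replicate 3 only Hdac1 was, and Mbd3 was called only when all libraries or all but Mta3_del/del replicate 2 were used. Chd3 was at 46.9, 48.7 and 49.5 CPM in the parents and at 74.7, 96.6 and 40.7 CPM in the mutants (0.51 ± 0.26, adjusted p = 0.195, edgeR), and without Mta3_del/del replicate 3, the low library, it was called at 0.77 ± 0.14 (adjusted p = 0.0436, edgeR).

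In Mta1_del/del cells no member was called against Mta1_flox/flox, with or without the replicate block that pairs the same-numbered libraries. In edgeR 0 of 14561 genes were called there, 50 genes and 0 members had an unadjusted p under 0.05, and DESeq2 called 0 members. Chd3 had the largest fitted value, 0.52 ± 0.28 (adjusted p = 1, edgeR), from 43.7, 27.7 and 54.4 CPM in the parents and 66.9, 70.8 and 43.9 CPM in the mutants. Its chromosome 11 was the most shifted chromosome in this comparison, with a median of 0.15 over 1201 genes, and varied among the libraries of each group, from -0.28 in Mta1_flox/flox replicate 2 to 0.24 in Mta1_flox/flox replicate 3 and Mta1_del/del replicate 3. The other 9 members had fitted values of -0.19 to 0.08. With the replicate block Gatad2a was at 0.04 ± 0.10 and Rbbp4 at -0.05 ± 0.09, while Chd3 was at 0.53 ± 0.30 and had the widest error.

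Further NuRD genes were counted too: Mta1, Mta2, Mta3, Cdk2ap1, Cdk2ap2, Chd5, Sall1 and Sall4. Mta1, Mta2 and Mta3 are the genes deleted in Mta123KO cells, so a fall of theirs follows from the genotype. Of these 8 genes, 2 rose and 5 fell in Mta123KO labelled 2iL, beside 27.1% and 24.2% of all genes. Under 48 h 0 rose and 4 fell, beside 26.6% and 23.4% of all genes. Besides Mta2 and Mta3, the zinc finger gene Sall1 fell, from 108 to 47.2 CPM (log2 fold change -1.19 ± 0.23, adjusted p = 0.00232, edgeR) and from 121 to 49.1 CPM (-1.28 ± 0.09, adjusted p = 9.26e-06, edgeR). Sall1 rose in Mta2_KO cells (1.43 ± 0.12, adjusted p = 1.07e-05, edgeR) and in Mta3_del/del cells (1.12 ± 0.14, adjusted p = 0.0141, edgeR). Cdk2ap2, a relative of the small NuRD-associated protein Cdk2ap1, rose in Mta2_KO cells by 1.51 ± 0.06 (adjusted p = 5.48e-08, edgeR).

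The genes of the partner complexes of Hdac1, Hdac2, Rbbp4 and Rbbp7 were counted in the same way, and their counts stand against the 51.3% and 50% of all genes called. Under 2iL, 3 of 12 Sin3 genes rose and 5 fell in Mta123KO, 0 of 7 CoREST genes rose and 4 fell, and 4 of 7 PRC2 genes rose and 2 fell. Under 48 h the counts were 2 and 3 for Sin3, 1 and 4 for CoREST and 1 and 2 for PRC2. Of these genes, the CoREST scaffold Rcor2 fell by 1.20 and 1.68 on the log2 scale (SE 0.26 and 0.12, adjusted p = 0.00450 and 1.10e-05, edgeR). The CAF-1 subunit Chaf1b, which binds histones together with Rbbp4, fell by 1.09 and 0.85 (SE 0.17 and 0.09, adjusted p = 7.88e-04 and 8.08e-05, edgeR), and its partner Chaf1a rose under 2iL (0.21 ± 0.06, adjusted p = 0.0113, edgeR). The MiDAC scaffold Elmsan1 rose by 0.84 ± 0.15 and 1.09 ± 0.14 (adjusted p = 0.00184 and 2.19e-04, edgeR), and 1 of 3 MiDAC genes rose under 2iL and 2 under 48 h. Of the 2 NURF genes, 1 fell under 2iL (Bptf, -0.54 ± 0.07, adjusted p = 1.89e-04, edgeR) and 1 rose under 48 h (Smarca1, 1.86 ± 0.17, adjusted p = 3.53e-05, edgeR).

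Relatives of the members were counted in the same way, beside the same 51.3% and 50% of all genes called in Mta123KO. Of 5 other methyl-CpG-binding domain genes, Mbd1 rose in Mta123KO under both labels (1.11 ± 0.12 and 0.60 ± 0.12, adjusted p = 1.13e-04 and 0.00246, edgeR) and Mbd4 fell (-0.36 ± 0.12 and -0.47 ± 0.13, adjusted p = 0.0317 and 0.0118, edgeR). In Mta2_KO cells Mbd1 fell (-0.66 ± 0.07, adjusted p = 6.98e-05, edgeR). Mbd1 thus rose with Mbd2 in the triple mutant. Of 7 other CHD remodeller genes, 2 rose and 3 fell under 2iL and 2 rose and 2 fell under 48 h. This list includes Chd5, which was also counted above among the further NuRD genes. Chd7 fell under 2iL (-0.60 ± 0.20, adjusted p = 0.0310, edgeR) and rose under 48 h (0.88 ± 0.06, adjusted p = 8.80e-06, edgeR). The interaction of Chd7 was called (1.49 ± 0.22, adjusted p = 1.79e-04, edgeR). Of 9 further histone deacetylases, 2 rose and 3 fell under either label.

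Chd3, Mbd2 and Hdac2 had the widest span of group means in the 16 libraries of the second set, at 2.45, 1.33 and 0.89 on the log2 CPM scale. Among 10256 genes with at least 10 CPM, those whose centred log2 CPM was close to that of Chd3 included Zbtb10 and the tight-junction gene Cldn4, with root mean square differences of 0.208 and 0.217. Nearest to Mbd2 were Mrtfb (0.124), Gkap1 (0.128) and Reep3 (0.132), and nearest to Hdac2 were Aars (0.102), Mrpl47 (0.105) and Kmt5c (0.108). These distances describe the same 16 libraries from which the spans were taken and carry no test.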

How the data were processed

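The authors deposited raw read counts per gene without normalization, 1 library per file. Per the labels and the study's methods, libraries made with directional or stranded total RNA kits were trimmed with Trim Galore, aligned to GRCm38/mm10 with TopHat2 and counted with featureCounts on Ensembl genes; the setting for reads that align to several places is not given in the sources used here, and this can move reads between genes and pseudogene copies. Symbols, coordinates and exon lengths came from GENCODE vM21.

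Counts were tested with edgeR 4.0.16 in R 4.3.3 (TMM scaling, filterByExpr and the quasi-likelihood test, fitted on the groups of each comparison alone), with Benjamini-Hochberg adjustment over all genes tested and calls at an adjusted p under 0.05. SE is the log2 fold change divided by the square root of F. CPM were scaled by TMM within each set, and no test compared the sets, since reads were single-end in one and paired-end in the other. Only marker levels and shares within pairs are set side by side. DESeq2 1.42.0, other scalings, blocks, summed lines and left-out libraries were alternatives. The procedure was tested on simulated data. All 10 members were named, with up to 3 called genes of each other list per comparison, and the nearest 3 genes of 3 members, of which 1 is not reported here. Members and lists were chosen with earlier results of these data known. Fits of single lines, the line block and added pseudogene counts were chosen after seeing the data.

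Replicate numbers pair libraries in the Mta1 comparison, where deviations of same-numbered libraries correlated at 0.435 to 0.7 across genes, and between culture labels, where the number gives the line (0.272 to 0.337 in Control, 0.552 to 0.586 in Mta123KO). Same-line libraries of the second set differed by 6.317 to 19.42 chi-square units per degree of freedom. Libraries of different lines differed by 17.56 to 34.79 in Control and by 86.97 to 112.8 in Mta123KO. Libraries were kept as separate samples in the main fits, which does not make those of a line independent samples of a genotype. Fits with the libraries of a line summed are the check on this.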

Additional observations from a re-analysis of the deposited data

Results flagged for a closer look

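In the second set, each of the 10 members was checked in each of 4 groups for a library far from the other 3, 40 checks in all, of which chance gives about 1 in 20. One was found. Gatad2b in Control cells labelled 2iL was at 52.0 CPM in 1 library and at 50.3, 50.5 and 50.3 CPM in the others, a small gap within a narrow group.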

How the results depend on the processing

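No fitted value that was called, before or after a change of setting, turned its sign in the 1310 recomputed member values; 1214 kept their side of the threshold, 51 lost a call and 45 gained one. All 80 values kept it with DESeq2 size factors and all 80 with no filter on low counts. Counts of called members that moved by over 1.5 times follow. With an absolute log2 fold change above 1 as well, they were 1 for Mta2, 0 for Mta3, 2 and 2 for Mta123KO under 2iL and 48 h, and 0 for culture in Control. One fit of all libraries gave 3 for Mta2 (7 in the comparison alone) and 1 for culture in Mta123KO. Summed lines gave 3 (2iL) and 2 (48 h) for Mta123KO. Spike-in scaling, which moved the median of all genes by -0.18 for Mta123KO under 48 h, gave 4 there and 4 for culture in Control. DESeq2 gave 1 for culture in Mta123KO and 1 for the interaction. For culture in Mta123KO the replicate block gave 4, the line block 5, line 1 only 4 and line 2 only 5; added pseudogene counts gave 1 there and 1 for the interaction, and the replicate block gave 5 for the interaction. Where the numbers do not pair libraries (Mta2, Mta3 and Mta123KO comparisons, correlations from -0.255 to 0.342) the replicate block gave 6, 3, 7 and 7 calls against 7, 3, 7 and 7. Leaving out 1 library gave 5 to 7 calls for Mta2, 0 to 4 for Mta3, 6 to 8 for Mta123KO under either label, 8 to 9 for culture in Control, 0 to 0 for Mta1 and culture in Mta123KO and 0 to 2 for the interaction. Ratios of levels in Control labelled 2iL moved with the length used: per kilobase of longest transcript and of coding sequence, Mbd3 to Mbd2 was 3.96 and 4.90 (5.46 per merged exons), Gatad2a to Gatad2b 6.09 and 3.87 (8.40), Hdac1 to Hdac2 0.522 and 0.332 (0.425) and Rbbp4 to Rbbp7 0.517 and 1.07 (0.357). The cause of these differences was not tested beyond what each setting changes by construction.

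What limits the values is the number of lines: 2 lines a genotype in the second set and 1 Mta2_KO line. Depth is not limiting for these genes; sharing of reads with copies is, for Hdac1.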
